A study of Mus musculus with 12 samples.

Results

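Genes of RNA splicing and RNA helicases were followed in yolk sacs taken from *Prdm6* del/del embryos. These lack exon 3 of *Prdm6*, a gene of the PR domain family, through a deletion passed on in the germ line, and come from intercrosses of heterozygous mice. The members are all probes of the array whose gene symbol starts with Hnrnp, Srsf, Sf3, Snrp, Prpf, Mbnl, Rbm, Ddx or Dhx. They number 171 of the 20794 probes and stand for 110 of the 9030 genes with a symbol on the array. All 171 had a value on at least 8 of the 12 arrays and were tested, 166 of them on every array. The del/del yolk sacs were those of 6 embryos at embryonic day 10.5 (E10.5), and each of the 12 cDNA microarrays set the RNA of a del/del yolk sac in one colour against a pool of RNA from 6 wild type (*Prdm6* wt/wt) yolk sacs in the other. The del/del RNA carried the dye Cy5 on 5 arrays and Cy3 on 5, and for replicates 8 and 9 the labels name the same dye for both channels. Each value is a log2 ratio that the authors had normalized, so it compares genotypes for 1 probe and says nothing of how strongly a gene is expressed.

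The ratios are read as del/del over wild type. The labels name the genotypes -/- and +/+, and neither they nor the methods state this direction or the base of the logarithm, which is taken as 2. The direction is taken as likely because the legend and gene list of the study's heat plot place *Sfrp1* above and the globin genes below wild type, which is how the deposited values run when read this way. Between 20011 and 20501 probes had a value on each array, with array medians between -0.06 and 0.05. Over all probes, arrays of opposite dye orientation had a median Pearson correlation of -0.115, and arrays of the same orientation 0.124. All 360 values beyond 8 in size on the 10 arrays with clear dye labels were above 0 with del/del in Cy5 and below 0 with del/del in Cy3, and 1 of the 171 member probes carries such a value. Which yolk sac an array came from is not in the labels. The 12 arrays of 6 yolk sacs therefore entered the test as if independent, which makes p-values and intervals too small. The pool is 1 control sample, so the spread between wild type yolk sacs is left out. *Prdm6* itself was not analysed here.

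A newly made messenger RNA precursor is bound by heterogeneous nuclear ribonucleoproteins (hnRNPs, Hnrnp genes) and by serine/arginine-rich proteins (Srsf genes), which mark or mask exons, and introns are removed by the spliceosome, a set of small nuclear RNAs with their Sm and other snRNP proteins (Snrp genes), the branch point complex SF3 (Sf3 genes) and the pre-mRNA processing factors (Prpf genes). Muscleblind-like proteins (Mbnl genes) and many RNA binding motif proteins (Rbm genes) shift the choice of alternative exons during differentiation, and muscleblind proteins do so in particular in muscle and heart. DEAD-box (Ddx) and DEAH-box (Dhx) helicases use ATP to rearrange RNA and its proteins, some in the spliceosome and others in ribosome assembly, translation, RNA decay or the sensing of viral RNA, so that the prefixes do not name splicing factors alone.

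Promoters of the genes are given for the 3 members whose mean ratio differed from 0 at an adjusted p under 0.05, *Mbnl1*, *Rbm12* and *Rbm14*, to show the sequence feature that most members share and *Mbnl1* carries at only 1 of its starts. The stretches run from 250 bases before to 50 bases after an annotated start (RefSeq, GRCm38.p6), and capitals mark the dinucleotide CG, which reads the same on both strands.
*Mbnl1*, upstream start (chr3:60472580-60472879, plus strand): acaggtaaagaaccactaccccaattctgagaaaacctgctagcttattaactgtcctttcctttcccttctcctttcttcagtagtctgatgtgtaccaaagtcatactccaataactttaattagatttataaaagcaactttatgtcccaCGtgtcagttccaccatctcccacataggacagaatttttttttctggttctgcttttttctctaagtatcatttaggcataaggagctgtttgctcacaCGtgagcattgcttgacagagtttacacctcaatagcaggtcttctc
*Mbnl1*, downstream start (chr3:60500929-60501228, plus strand): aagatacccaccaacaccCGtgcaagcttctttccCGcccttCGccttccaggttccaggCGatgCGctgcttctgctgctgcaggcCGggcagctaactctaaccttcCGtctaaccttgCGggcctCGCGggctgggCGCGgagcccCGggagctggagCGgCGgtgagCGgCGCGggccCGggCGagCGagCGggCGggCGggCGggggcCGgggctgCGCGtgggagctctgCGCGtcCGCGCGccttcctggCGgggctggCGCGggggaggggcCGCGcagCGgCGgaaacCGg
*Rbm12* (chr2:156111916-156112215, minus strand): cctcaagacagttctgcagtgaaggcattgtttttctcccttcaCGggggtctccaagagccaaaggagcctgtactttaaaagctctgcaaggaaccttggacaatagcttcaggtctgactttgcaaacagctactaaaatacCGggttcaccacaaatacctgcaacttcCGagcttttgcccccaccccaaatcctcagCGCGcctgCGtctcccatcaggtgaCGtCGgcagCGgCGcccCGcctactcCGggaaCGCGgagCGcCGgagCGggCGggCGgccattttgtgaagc
*Rbm14* (chr19:4811585-4811884, minus strand): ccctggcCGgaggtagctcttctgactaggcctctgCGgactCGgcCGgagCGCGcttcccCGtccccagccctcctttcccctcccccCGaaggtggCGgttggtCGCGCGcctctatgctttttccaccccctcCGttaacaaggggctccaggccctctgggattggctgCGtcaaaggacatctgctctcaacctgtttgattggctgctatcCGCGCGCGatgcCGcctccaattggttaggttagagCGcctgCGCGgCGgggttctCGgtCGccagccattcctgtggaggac
The upstream *Mbnl1* stretch holds 2 CG and 39.3% G and C, and the downstream one 41 CG and 75.0%, against 19 in *Rbm12* and 25 in *Rbm14*. Of 129 such stretches of 97 member genes with an entry, 101 (78.3%) hold at least 15 CG, as do 61.7% of 9346 stretches of all genes with a tested probe and 34.6% of all 32851 in the table. This is a description of letters, with no test. The 110 genes lie on 20 chromosomes.

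Most members differed little between del/del and wild type yolk sacs. Of 171 probes, 0 were higher and 1 was lower at a Benjamini-Hochberg adjusted p under 0.05 in limma with a change over 1.3-fold, where 0.166% of all 20516 tested probes were higher and 0.907% lower. Without the fold threshold 1 member probe was higher and 2 were lower, against 0.253% and 1.06% of all probes. At an unadjusted p under 0.05, 12 member probes (7.02%) were higher and 17 (9.94%) lower, against 4.64% and 6.41% of all probes. The median log2 ratio was 0.0047 over the members and -0.0037 over all probes, with 87 members above and 84 below 0. A mean beyond 1.3-fold in either direction, which is 0.38 on the log2 scale, was found for 5 members (2.92%), against 7.07% of all probes. For 129 members (75.4%) the whole 95% interval of the mean lay within 1.3-fold in both directions, against 61.4% of all probes, and the median SD between arrays was 0.35 for members and 0.41 for all probes. Because arrays share yolk sacs and the pool, these intervals are too small, so such counts, here and below, may be too high. None of the 171 had 1 sign on every array where it was measured, against 0.950% of all probes.

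**Figure D1:**
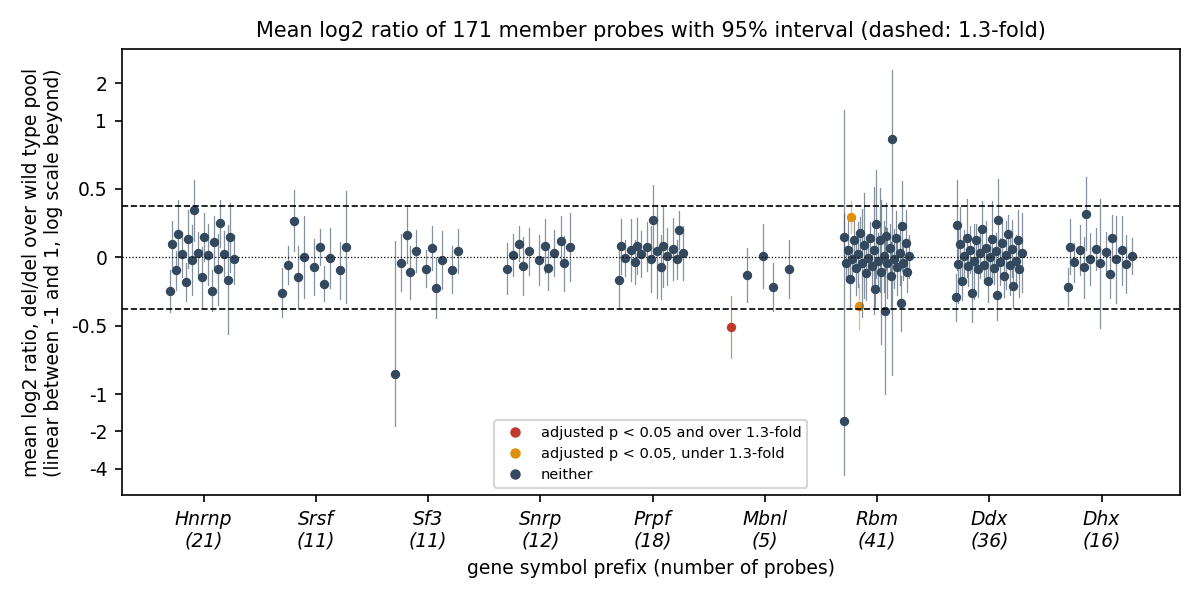
Mean log2 ratio (vertical axis, del/del over the wild type pool, linear between -1 and 1 and logarithmic beyond) of each of the 171 member probes by gene symbol prefix (horizontal axis), with bars for the 95% interval of limma and dashed lines at 1.3-fold. Only *Mbnl1* is past both thresholds (red), *Rbm12* and *Rbm14* pass the adjusted p alone (orange), and the widest intervals are those of single *Rbm* and *Sf3* probes.

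*Mbnl1*, a regulator of alternative splicing with zinc fingers that bind RNA, was the member that fell. Its log2 ratios on the 12 arrays ran from -1.40 to 0.10 with a median of -0.37 (probe 5387), and 11 of 12 were below 0. The mean was -0.51 (SD 0.48, n = 12 arrays, 95% interval -0.74 to -0.28), with an adjusted p of 0.0337 from limma. The study lists *Mbnl1* as differentially expressed on these same arrays, so this call is not independent of that choice. By dye, *Mbnl1* had a mean of -0.18 (SD 0.21) where Cy5 labelled the del/del RNA (5 arrays) and -0.85 (SD 0.47) where Cy3 did (5 arrays), and its dye term did not pass (limma adjusted p = 0.0709). Exact permutation of the signs (two-sided, n = 5 arrays each) gave p = 0.125 with del/del in Cy5 and p = 0.0625 with del/del in Cy3, where 0.0625 is the smallest p that 5 arrays allow. When arrays of consecutive replicate number are averaged as presumed dye-swap pairs, all 6 pair means were below 0, between -0.84 and -0.33, and the adjusted p from limma was 0.0523, which does not pass. The call was also lost with the dye term left out (adjusted p = 0.128), on the 10 arrays with clear labels (adjusted p = 0.0746) and without any 1 of replicates 1, 2, 3, 6, 7, 8, 10, 11 and 12 (adjusted p between 0.0602 and 0.0928). In these bulk samples less *Mbnl1* RNA per cell and fewer cells that express it cannot be told apart.

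The relatives of *Mbnl1* did not pass. *Mbnl2*, its close paralogue with a large part in the brain, has 3 probes, with mean log2 ratios of -0.22 (probe 7579, SD 0.27, lower on 9 of 12 arrays, limma adjusted p = 0.325), -0.09 (probe 17739) and 0.01 (probe 2211). *Mbnl3*, the third muscleblind gene, had -0.13 (probe 5678, 95% interval -0.32 to 0.07, lower on 7 of 12). The cDNA probes of paralogues can share target RNA, and the probe sequences were not used here.

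*Rbm14* and *Rbm12* passed the adjusted p but not the 1.3-fold threshold. *Rbm14*, a paraspeckle protein and coactivator of transcription, had log2 ratios between -0.02 and 0.61 with a median of 0.31 (probe 11098). It was above 0 on 11 of 12 arrays, with a mean of 0.30 (SD 0.19, n = 12, 95% interval 0.18 to 0.41, limma adjusted p = 0.0154). *Rbm12*, a nuclear RNA binding protein, had log2 ratios between -0.80 and 0.17 with a median of -0.51 (probe 3851), below 0 on 9 of 12 arrays. Its mean was -0.36 (SD 0.34, n = 12, 95% interval -0.52 to -0.20, limma adjusted p = 0.0367). For both, the arrays with del/del in Cy5 lay farther from 0. *Rbm14* averaged 0.43 with del/del in Cy5 and 0.13 with del/del in Cy3, and *Rbm12* averaged -0.63 with del/del in Cy5 and -0.09 with del/del in Cy3. All 5 Cy5 values of *Rbm12* lay below 0, and 3 of its 5 Cy3 values lay above. The 6 presumed pair means were all above 0 for *Rbm14* (0.16 to 0.41) and all below 0 for *Rbm12* (-0.61 to -0.24), and with pairs averaged neither passed the adjusted p of limma (0.119 and 0.101). In the RefSeq annotation *Rbm12* overlaps *Cpne1* and *Rbm14* overlaps *Gm21992*, so a probe in a shared stretch could not tell these genes apart.

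**Figure D2:**
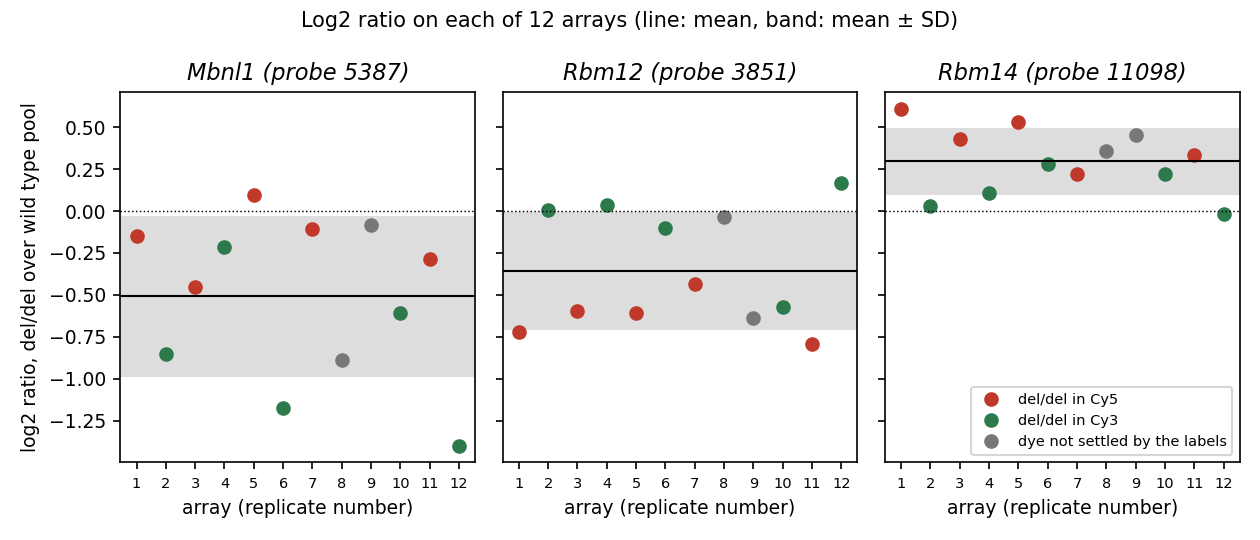
Log2 ratio of *Mbnl1*, *Rbm12* and *Rbm14* (vertical axis, del/del over the wild type pool) on each of the 12 arrays (horizontal axis, replicate number, which has no order), coloured by the dye of the del/del RNA, with the mean as a line and mean ± SD as a band. *Mbnl1* is lowest with del/del in Cy3 (mean -0.85), *Rbm12* with del/del in Cy5 (mean -0.63), and *Rbm14* is highest with del/del in Cy5 (mean 0.43).

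Among the hnRNP genes, 0 of 21 probes of 13 genes passed, with means between -0.25 and 0.34 and a median of 0.02. Over all tested probes 0.166% passed as higher and 0.907% as lower, so 0 of so few is close to that share. At an unadjusted p under 0.05, 2 (9.52%) were higher and 3 (14.3%) lower, against 4.64% and 6.41% of all probes. *Hnrnpa3*, which packages and transports mRNA, had the smallest adjusted p (0.146 from limma, probe 5460), with values between -0.62 and 0.22, a median of -0.20 and a mean of -0.24 (SD 0.22, lower on 11 of 12 arrays). *Hnrnpu*, a scaffold of nuclear RNA and chromatin, had -0.25 by probe 9828 (SD 0.25, lower on 9 of 12, limma adjusted p = 0.165), while its probes 12103 and 19668 had 0.15 each. So the 3 probes of *Hnrnpu* disagreed in sign. *Hnrnpc*, which binds uridine tracts in nascent transcripts, was near 0 by all 3 of its probes, with means between -0.01 and 0.03. The highest mean was that of *Hnrnpm* by probe 4616, at 0.34 (limma adjusted p = 0.178), while its probe 19774 had 0.11.

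Among the serine/arginine-rich splicing factors, 0 of 11 probes of 8 genes passed, with means between -0.26 and 0.27 and a median of -0.06. This is close to the share over all probes, 0.166% higher and 0.907% lower. *Srsf5* had values between -0.55 and 0.18 by probe 5818, with a median of -0.21 and a mean of -0.19 (SD 0.17, lower on 11 of 12, limma adjusted p = 0.193), while its probe 6177 had 0.0047. *Srsf6* had a mean of -0.26 (probe 4458, SD 0.39, lower on 9 of 12, limma adjusted p = 0.215), made up of -0.54 with del/del in Cy5 and 0.08 with del/del in Cy3. *Srsf1*, the founding member of the family, had 0.27 and 0.08 by its 2 probes (limma adjusted p = 0.325 and 0.912). Probe 11957 had a wide interval, with single values between -1.14 and 1.21.

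The Snrp genes code for Sm proteins and for proteins of single snRNPs, and all 12 of their probes, of 8 genes, had a 95% interval within 1.3-fold in both directions. So did 61.4% of all probes, and the intervals are too small, as said above. Their means lay between -0.08 and 0.12, with a median of 0.03. *Snrpd3*, an Sm core protein, had 0.10 by probe 16388 (SD 0.19, higher on 8 of 12, limma adjusted p = 0.575) and 0.03 by probe 5293. *Snrpa*, the U1 snRNP protein A, had 0.12, 0.05 and -0.08 by its 3 probes (smallest limma adjusted p = 0.636). *Snrpn*, an imprinted gene for a tissue-restricted Sm protein, had 0.08.

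Of the SF3 genes, whose products clasp the branch point with the U2 snRNP, 0 of 11 probes of 6 genes passed. The interval lay within 1.3-fold for 9 of them (81.8%), against 61.4% of all probes. Over all probes 0.166% passed as higher and 0.907% as lower, so 0 is close to that share here and for the processing factors. *Sf3a1* had -0.22 by probe 3457 (SD 0.51, lower on 8 of 12, limma adjusted p = 0.455) and -0.02 by probe 3999. *Sf3b2* had a fitted mean of -0.85 by probe 15730, but this probe had a value on only 9 arrays, from -2.39 to 1.96. Its adjusted p from limma was 0.516. The other *Sf3b2* probes, 1884 and 11062, had 0.07 and 0.05 on all 12 arrays. Of the processing factors, 0 of 18 probes of 10 genes passed, 15 (83.3%) had an interval within 1.3-fold, and 12 means were above 0. *Prpf19*, a ubiquitin ligase that activates the spliceosome, had values between -0.05 and 0.50 with a mean of 0.20 (SD 0.20, higher on 10 of 12, limma adjusted p = 0.218). *Prpf31*, a protein of the U4/U6 snRNP, had 0.28 by probe 11656 (limma adjusted p = 0.407), and 0.05 and 0.08 by probes 11602 and 17461. *Prpf8*, the protein at the catalytic centre, had -0.04 (SD 0.25).

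No helicase passed. The 36 Ddx probes of 25 genes had means between -0.29 and 0.27, and the 16 Dhx probes of 12 genes between -0.22 and 0.32. At an unadjusted p under 0.05, 3 Ddx probes (8.33%) were higher and 6 (16.7%) lower, and 1 Dhx probe (6.25%) was higher and 1 (6.25%) lower. Over all probes 4.64% were higher and 6.41% lower at that p. Grouped by the role each is best known for, the median log2 ratio was 0.01 for 17 probes of 12 helicases of splicing, 0.0045 for 12 probes of 9 helicases of ribosome assembly, and -0.02 for 16 probes of 10 helicases of translation, export, mitochondria and decay. The interval lay within 1.3-fold for 13, 10 and 12 of these probes (76.5%, 83.3% and 75.0%), against 61.4% of all probes. *Dhx58*, a sensor of viral RNA, had 0.05, and 6 probes of 5 helicases in none of these groups lay between -0.12 and 0.12.

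*Ddx5*, a coregulator of transcription and splicing, had the smallest adjusted p of the helicases (0.129 from limma), with values between -0.83 and 0.28 by probe 2419, a median of -0.28 and a mean of -0.29 (SD 0.34, lower on 10 of 12). Its probes 5958 and 19620 had -0.08 and 0.24 (limma adjusted p = 0.784 and 0.605). *Ddx17*, the paralogue of *Ddx5*, had -0.17 and -0.13 by its 2 probes (limma adjusted p = 0.338 and 0.524). *Ddx6*, a helicase of translational repression and mRNA decay, had -0.28 by probe 20052 (SD 0.26, lower on 10 of 12, limma adjusted p = 0.174). Its other probes had -0.17, -0.07 and 0.03. *Dhx16*, which drives a remodelling step before the first splicing reaction, had values between -0.70 and 0.03 and a mean of -0.22 (SD 0.21, lower on 9 of 12, limma adjusted p = 0.167). *Dhx15*, which takes apart the spliceosome after splicing, had 0.32 by probe 15635 (higher on 10 of 12, limma adjusted p = 0.336) and -0.01 by probe 6668. *Ddx3x*, an X-linked helicase of translation, had -0.26 (limma adjusted p = 0.337).

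The Rbm genes had the widest range of means among the prefixes, between -1.65 and 0.87 for 41 probes of 25 genes. Of these probes 9 (22%) had an interval that reaches more than 1.3-fold to each side of the mean. This is close to the share over all probes, 19.0%, while over all members it was 13 (7.60%). The extremes were single probes with few or outlying values. *Rbm4b* had -1.65 by probe 13494, where replicate 2 read -16.5, replicate 1 read -4.48 and the median was 0.12. Its probe 16931 had -0.16. Replicates 1 and 2 form a presumed pair, and whether they share a yolk sac is not in the labels. *Rbms1* had a fitted mean of 0.87 by probe 12787, measured on 9 arrays between -3.28 and 5.20, and 0.24 and 0.06 by its other probes. With arrays missing, the mean fitted with a dye term is not the plain average. *Rbm6* had -0.39 by probe 3646, where replicate 2 read -3.37 and replicate 1 read -1.15, and -0.04 by probe 16797. For such probes a change of 1.3-fold was not detectable.

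Of 43 genes with more than 1 probe, 21 had all probes on the same side of 0 and 22 had probes on both sides, with a median range of 0.19 between the lowest and the highest probe. The 95% interval of a single member probe reached a median of 0.20 to each side of its mean, so probes on both sides of 0 include genes near 0 by every probe, such as *Hnrnpc*. At an unadjusted p under 0.05 in 2 or more probes, chosen after the values were seen, there were 2 of the 43 genes, *Rbm5* and *Ddx6*. The counts of this paragraph were not made over all genes with several probes, so they show nothing particular to the members. *Rbm5*, a splicing regulator with a part in apoptosis, had -0.33 by probe 19826 (lower on 11 of 12) and -0.23 by probe 14142 (lower on 10 of 12), with adjusted p of 0.134 and 0.146 from limma. By dye, probe 19826 had -0.30 with del/del in Cy5 and -0.33 with del/del in Cy3, and probe 14142 had -0.14 with del/del in Cy5 and -0.32 with del/del in Cy3. No member gene had probes past an unadjusted p of 0.05 in opposite directions.

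**Figure D3:**
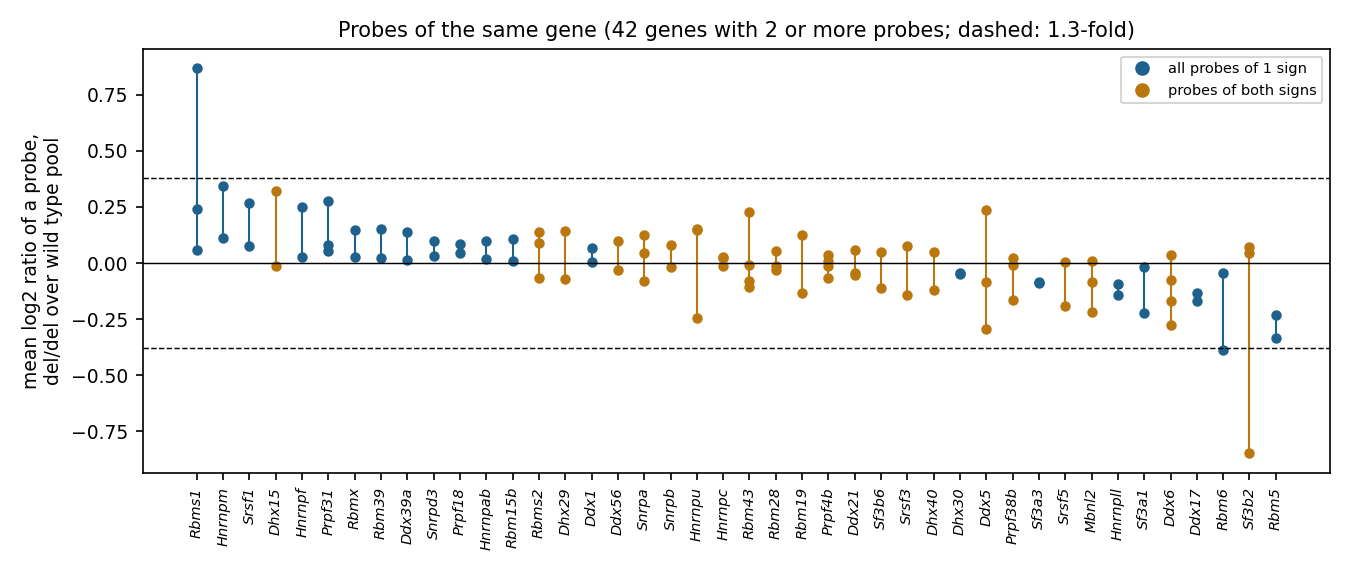
Mean log2 ratio of each probe (vertical axis, del/del over the wild type pool) for 42 of the 43 member genes with 2 or more probes, ordered by their mean (horizontal axis), with a line from the lowest to the highest probe and dashed lines at 1.3-fold; *Rbm4b* (-1.65 and -0.16) is left out for scale. Genes with probes on both sides of 0 are common (22 of 43), and *Rbm5* at the right end has both of its probes below -0.2.

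Ratios of some members depended on the dye. The dye term of the fit, which is above 0 where the ratio is higher with del/del in Cy5, had an adjusted p under 0.05 for 26 of 171 members (15.2%), against 12.2% of all probes. The median size of the dye term was 0.14 for members, and that of the mean ratio 0.08. The largest of the 26 were *Dhx57*, with a dye term of 0.74 and a mean ratio of -0.01, and *Srsf4*, with 0.66 and -0.07. For *Mbnl1*, *Rbm12* and *Rbm14* the dye terms were 0.34, -0.27 and 0.15, with adjusted p of 0.0709, 0.0507 and 0.105 from limma.

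**Figure D4:**
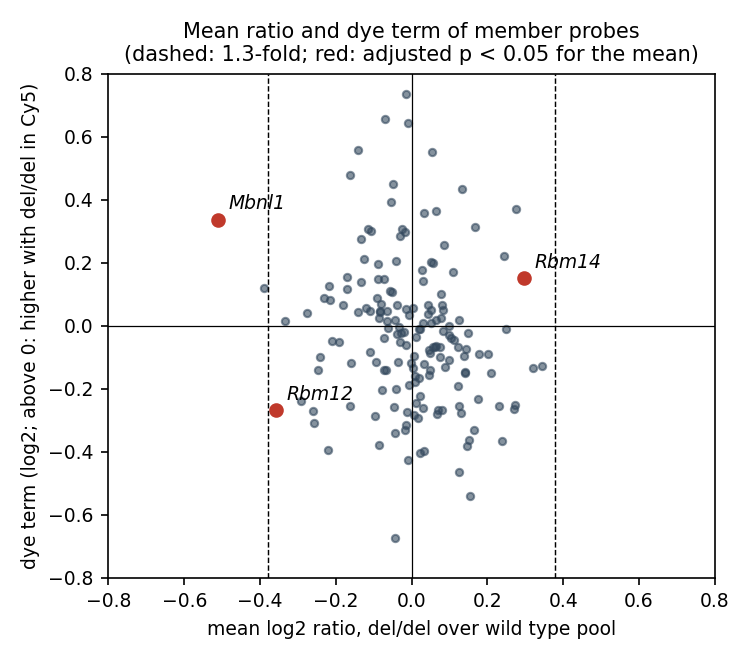
Dye term (vertical axis, log2) against mean log2 ratio (horizontal axis, del/del over the wild type pool) of the member probes, 3 of which lie outside the axes, with dashed lines at 1.3-fold and the members at adjusted p under 0.05 for the mean in red. *Mbnl1* lies at -0.51 with a dye term of 0.34, and most other members lie near 0 on the horizontal axis with a wider spread on the vertical one.

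Other genes of the same processes were taken from lists whose symbols carry none of the prefixes. Of 145 other spliceosome and splicing factors listed, 100 were measured by 163 probes, and 0 rose and 2 fell, *Pcbp1* and *Matr3*. Over all tested probes 0.166% were higher and 0.907% lower, and 2 of 163 is close to that share. Their 163 probes had a median log2 ratio of -0.0031. The study's list of differentially expressed genes names neither. *Pcbp1*, a poly(C) binding protein, had values between -2.34 and -0.71 with a mean of -1.32 (probe 15907, SD 0.54, lower on 12 of 12, limma adjusted p = 0.000448). This rests on 1 probe, and which RNAs that probe binds was not tested. *Pcbp2*, on the same list, had -0.13 (probe 11875) and 0.02 (probe 4284). The median above covers *Pcbp1* and *Pcbp2* alike. *Matr3*, a nuclear matrix protein that represses exons, had values between -0.70 and 0.14 with a mean of -0.38 (probe 4898, SD 0.27, lower on 11 of 12, limma adjusted p = 0.032). The mean of *Matr3*, -0.382, lay close to the 1.3-fold line, which is 0.3785 in size. The call of *Matr3* was lost with presumed pairs averaged and without any 1 of 9 arrays. Of 22 symbols listed for other RNA helicases, 10 were measured by 13 probes. *Aqr* stands on both lists and is counted in each. In limma 0 passed, with 0 higher and 2 lower (15.4%) at an unadjusted p under 0.05. Over all probes 4.64% were higher and 6.41% lower at that p. The smallest adjusted p in that list were those of *Mtrex*, a helicase of the nuclear exosome, at -0.18 (limma adjusted p = 0.322), and *Dicer1*, which cuts miRNA precursors, at -0.13 by probe 6053 (limma adjusted p = 0.437), with 0.28 and 0.06 by its other probes.

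Red cell genes moved in these samples, and their values stand beside the calls above. Of 18 red cell markers listed, 8 were measured by 16 probes, with a median log2 ratio of -1.15, a range of the array medians from -1.79 to -0.42, and 7 genes lower. For 5 probes, 4 of them chosen after their values were seen, what was left over the 12 arrays once the fitted mean and dye effect were taken out was set against the average of 7 globin probes treated alike. The arrays are not independent, so the permutation p-values are too small. Most of these globin probes are of *Hba-a1*, and the rest are of *Hba-x*. *Pcbp1* had a Pearson's r of 0.81 with them (permutation p = 0.0017, adjusted p = 0.0085 over 5 relations) and Spearman's rho of 0.77 (permutation p = 0.00525, adjusted p = 0.0263), and r was 0.62 when the 2 arrays with the most distant globin values were left out. For *Mbnl1* r was 0.52 (permutation p = 0.0855, adjusted p = 0.143) and rho 0.48 (permutation p = 0.122, adjusted p = 0.282), and r was 0.56 without those 2 arrays. For *Rbm12* r was -0.53 (permutation p = 0.0763, adjusted p = 0.143) and rho -0.43 (permutation p = 0.169, adjusted p = 0.282), and r was -0.21 without them. For *Rbm14* r was 0.24 and rho 0.27, and for *Matr3* 0.37 and 0.30, with adjusted permutation p between 0.295 and 0.459. The part of red cell content in the fall of *Mbnl1* was not tested.

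Markers of other cell types moved less, apart from heart muscle. Of 12 measured visceral endoderm markers 0 passed (median 0.04), and of 8 endothelial markers 0 passed (median -0.08). Of 7 mesenchyme markers 3 fell (median -0.22), of 4 macrophage markers 2 fell (median -0.30), and of 5 markers of embryonic heart muscle 3 rose (median 0.64). Ratios do not show whether a marker is expressed, so the tissue itself could not be checked from these values.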

How the data were processed

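RNA of 6 *Prdm6* del/del yolk sacs was hybridized on 12 cDNA microarrays with 2 channels with a pool of 6 wild type yolk sacs in the second channel. Labels and methods differ on the RNA kit and amount. The values are log2 ratios that the authors normalized before they deposited them, by a method not given in the sources used here. Spot intensities were not used here, so dim spots could not be filtered. Precision is limited by the 6 del/del yolk sacs and the wild type pool, which the 12 arrays share. The values were used as deposited. Symbols came from the array's annotation, looked up by gene ID in an annotation of GRCm38.p6, which changed 0 of the 171 member symbols; 8023 probes have no symbol. Each of the 20516 probes with at least 8 values was fitted in R 4.3.3 with limma 3.58.1 (lmFit, then eBayes; mean against 0, dye code 1 for del/del in Cy5, -1 for Cy3 and 0 for replicates 8 and 9), with Benjamini-Hochberg adjustment over all probes. The mean of a probe is the one fitted with the dye term, which can differ from the plain average where arrays are missing. The thresholds, adjusted p under 0.05 and 1.3-fold, are those of the study's methods. Single probes were also tested by exact sign-flip permutation, and correlations by 100000 permutations. The fit was tested on simulated data whose noise was independent between arrays. That test cannot show the effect of the yolk sacs and the pool that the real arrays share. Named are all members past the threshold, for a prefix without one the 2 probes with the smallest adjusted p, and other probes of these genes. *Mbnl2*, *Mbnl3*, *Hnrnpc*, *Hnrnpm*, *Srsf1*, *Srsf4*, *Snrpn*, *Prpf8*, *Ddx17*, *Ddx3x*, *Dhx57*, *Dhx58*, *Rbm4b*, *Rbm5*, *Rbm6*, *Rbms1* and *Pcbp2* lie outside this rule and were chosen after their values were seen. The members, lists and thresholds were chosen with earlier results of these data known. Alternatives were other dye codes, arrays, scalings, minimums, eBayes options, fold thresholds, presumed pairs, probes averaged per gene, and each array left out.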

Additional observations from a re-analysis of the deposited data

How the results depend on the processing

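The number of lower member probes past the threshold was 1, *Mbnl1*, and stayed at 1 with replicate 8 taken as del/del in Cy3 and replicate 9 as del/del in Cy5, with arrays centred or scaled, with values beyond 8 as missing, with other minimums of values, with the robust or the trend option alone and with probes of a gene averaged. It was 0 with no dye term, on 10 arrays, with presumed pairs averaged, with robust and trend options both on (0 of all probes then pass), at 1.5-fold and on the 5 arrays of either orientation alone, and between 0 and 1 with each array left out (without replicate 8 or 12 the 1 probe was *Rbm12*). Without a fold threshold 1 member was higher and 2 were lower. With arrays turned by their dyes, which makes the dye term the tested effect, 9 were higher and 9 lower. The other splicing factors past the threshold numbered 12 with arrays turned, 1 on 10 arrays, with pairs averaged, with arrays scaled, at 1.5-fold or with del/del in Cy3 alone, 0 with both eBayes options or with del/del in Cy5 alone, and 1 to 2 with each array left out; the cause was not tested. *Pcbp1* stayed past the threshold in 27 of 30 alternatives. Over all probes 113 passed with pairs averaged, 132 at 1.5-fold, 1 with del/del in Cy5 alone, 44 with del/del in Cy3 alone and 1521 with arrays turned (32.8% lower), against 220 (84.5% lower). Some values changed sign. With arrays turned these were *Mbnl1* at 0.34, *Snrpd3* at -0.11, *Snrpa* at -0.19, *Prpf19* at -0.0893, *Ddx6* at 0.0415, *Dhx16* at 0.13, *Dhx15* at -0.14 and *Mtrex* at 0.29. With del/del in Cy3 alone they were *Srsf6* at 0.0774, *Sf3a1* at 0.16 and *Prpf31* at -0.0574, with del/del in Cy5 alone *Snrpd3* at -0.0464, *Snrpa* at -0.0404 and *Mtrex* at 0.12, and with probes averaged *Hnrnpu* at 0.0173 and *Dicer1* at 0.0706. *Rbm14* kept an adjusted p under 0.05 in 10 of the 12 sets that leave out 1 array, and *Rbm12* in 2.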
